A study of Mus musculus with 27 samples.

Results

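Fast synaptic transmission in the brain runs through ligand-gated ion channels, and the mRNAs of 30 of their subunits were followed from neural stem cell to olfactory bulb neuron. The set holds 16 ionotropic glutamate receptor subunits (Gria1 to Gria4, Grin1, Grin2a to Grin2d, Grin3a, Grik1 to Grik5 and Grid1), 9 GABA-A receptor subunits (Gabra2 to Gabra5, Gabrb1, Gabrb2, Gabrg1, Gabrg3 and Gabrd), 4 glycine receptor subunits (Glra1 to Glra3 and Glrb) and the serotonin 3 receptor subunit Htr3a. Members were taken by symbol, through the Ensembl identifiers of the deposited count table, and all 30 were found among its 45195 genes. Other subunits of these families were not analysed here.

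The study compared total mRNA with mRNA attached to ribosomes at 4 stages. The stages NSC (neural stem cell) and ENB (early neuroblast) were sampled in the subventricular zone, SVZ, and the stages LNB (late neuroblast) and Neuron in the olfactory bulb, OB. All animals were male C57BL/6 mice of 8 to 12 weeks that received tamoxifen at 200 mg per kg. Apart from the background controls described below, they carried CreER driven by Tlx (TiCRY mice) or by Dcx (DiCRY mice), an eYFP reporter and Rpl22.HA. Through that allele recombined cells put an HA tag on a ribosomal protein. Each stage is thus defined by driver, tissue and time rather than by a surface marker. The driver of each stage is not given here, so a comparison of stages can also be one of drivers. Total mRNA came from 200 to 500 sorted eYFP-positive cells of 1 to 2 mice and had 3 libraries at each stage. Ribosome-bound mRNA came from anti-HA immunoprecipitates of unsorted tissue, with 2 libraries for NSC, 2 for ENB, 3 for LNB and 2 for Neuron. The immunoprecipitate of tissue without the HA tag was the background control, with 3 libraries from SVZ and 3 from OB. Names of the Neuron libraries and of 1 OB control library contain 4wpi, those of the ENB and LNB immunoprecipitates and of the other OB controls 3dp or 3dpi, and those of the NSC immunoprecipitates and of 1 SVZ control 4d. The 2 Neuron immunoprecipitates were placed by title and description, although their sample-type label reads total mRNA and their labels carry the sorting protocol. For these 2 the labels thus do not settle that the tissue was unsorted.

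AMPA, NMDA and kainate receptors are tetrameric cation channels opened by glutamate, and GABA-A and glycine receptors are pentameric chloride channels. Each subunit brings its own kinetics, ion permeability or location, so that cells change their synaptic responses by exchanging subunits during maturation. New olfactory bulb neurons are mostly GABAergic granule cells and periglomerular cells, and migrating neuroblasts are known to respond to GABA and glutamate before they form synapses.

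Depth ran from 5225929 to 15994635 counts in total mRNA, from 6325479 to 13316334 in the immunoprecipitates and from 5960357 to 9120659 in the controls. Marker genes were compared with the stage labels in total mRNA. There 4 of 6 stem cell and radial glia markers fell and 5 of 6 neuroblast markers rose from NSC to ENB, and 6 of 6 neuroblast markers fell and 4 of 5 mature neuron markers rose from LNB to Neuron. Stem cell and radial glia markers did not follow the labels throughout: they summed to 4515, 778 and 6671 CPM in LNB replicates 1 to 3, against 3181 to 3662 in NSC, 454 to 709 in ENB and 766 to 2789 in Neuron, and 2 of the 6 rose from ENB to LNB. The 3 LNB total libraries thus did not look alike. The summed level of 6 mature astrocyte markers was 4294 and 5784 CPM in LNB replicates 1 and 3 and 681 CPM in replicate 2, against 123 to 668 CPM in ENB and 3589 to 3795 CPM in NSC. CPM is a count scaled to a common library size, by the library total for the markers and by TMM-adjusted totals for receptor genes. The SVZ controls and the SVZ immunoprecipitates contained 1887 to 4126 CPM of 6 striatal projection neuron markers, against 5 to 104 CPM in the sorted cells and 40 to 63 CPM in OB immunoprecipitates and controls. All groups are bulk samples, in which fewer expressing cells and less RNA per cell cannot be told apart.

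A pair of the members lies head to head. Gabra4 (ENSMUSG00000029211, chr5:71569734-71658308 on the minus strand, GRCm38.p6) and Gabrb1 (ENSMUSG00000029212, chr5:71657921-72149572 on the plus strand) start 387 bases apart and overlap by 388 bases, so unstranded reads from the shared stretch cannot be assigned. Both fell from NSC to ENB and both rose again in LNB, and their promoter windows are shown for that reason beside that of Gabra5 (ENSMUSG00000055078, chr7:57407669-57591016, minus strand), the subunit with the largest rise from LNB to Neuron among the 7 members called there. Other members also overlap annotated genes, among them Gabrd with Cfap74 over 6000 bases, Grin3a with Ppp3r2 over 3237 bases and Gabra5 with the noncoding Gm9962 over 2273 bases and another gene over 499 bases. The Gabra5 window lies at a transcript start inside the gene. Each window runs 5′ to 3′ from 250 bases before to 50 bases after the RefSeq start, and capitals mark GGACAG or its reverse complement CTGTCC, one of the motifs of the RE1 element that the repressor REST binds.

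Gabra4, chr5:71658259-71658558, minus strand: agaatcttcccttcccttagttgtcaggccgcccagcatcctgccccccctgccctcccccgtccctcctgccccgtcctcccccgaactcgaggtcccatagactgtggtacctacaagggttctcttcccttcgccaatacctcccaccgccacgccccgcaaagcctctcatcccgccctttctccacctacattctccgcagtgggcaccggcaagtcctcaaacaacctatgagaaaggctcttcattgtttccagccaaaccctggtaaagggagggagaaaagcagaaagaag
Gabrb1, chr5:71657671-71657970, plus strand: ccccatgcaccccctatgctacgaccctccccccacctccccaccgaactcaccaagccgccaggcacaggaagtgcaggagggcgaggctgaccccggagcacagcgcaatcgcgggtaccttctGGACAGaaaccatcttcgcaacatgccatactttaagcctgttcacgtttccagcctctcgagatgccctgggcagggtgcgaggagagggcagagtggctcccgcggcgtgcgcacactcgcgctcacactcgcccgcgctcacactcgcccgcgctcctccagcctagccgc
Gabra5, chr7:57510010-57510309, minus strand: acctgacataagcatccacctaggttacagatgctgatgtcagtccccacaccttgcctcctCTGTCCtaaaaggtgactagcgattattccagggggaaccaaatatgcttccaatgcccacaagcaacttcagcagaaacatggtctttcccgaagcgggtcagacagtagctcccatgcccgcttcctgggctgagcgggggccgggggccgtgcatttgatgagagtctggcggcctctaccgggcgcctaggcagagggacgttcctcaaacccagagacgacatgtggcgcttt

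The window of Gabra4 held no match and those of Gabrb1 and Gabra5 held 1 each. GGACAG was found on either strand in 11 of the 24 windows of the 20 members with a RefSeq promoter entry, which belong to 10 genes, and in 22.2% of all 32851 windows of 300 bases. TTCAGCACC, the longer motif of that element, was found in 0 of the 24 and in 0.371% of all windows. These matches describe letters in a window and say nothing of binding. The members without an entry were Gria1, Gria3, Grin2a, Grin2b, Grin3a, Grik1, Grid1, Gabrd, Glra1 and Htr3a.

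In the total mRNA of sorted cells, several AMPA and NMDA receptor subunits rose with the stages, and 5 of the 9 GABA-A subunits fell from NSC to ENB and rose again in LNB. From NSC to ENB, 5 members rose (Gria2, Gria4, Grin2b, Grik3 and Htr3a) and 5 fell (Gabra2, Gabra4, Gabra5, Gabrb1 and Gabrg3), so that all 5 falls were in GABA-A subunits. Other cells' markers moved between these stages too. Mature neuron markers summed to 719, 96.3 and 745 CPM in NSC replicates 1 to 3 and to 197 to 278 CPM in ENB. Of the members called, Gria2, Gria4, Grin2b, Gabra2, Gabra4 and Gabra5 were each lowest in NSC replicate 2 among the NSC libraries. Grik3, Htr3a, Gabrb1 and Gabrg3 were not. Gria1 and Grin1, which were not called, were also lowest there. Oligodendrocyte precursor markers summed to 16.6 to 120 CPM in NSC and 246 to 475 CPM in ENB, and 4 of the 7 rose. Their part in these calls was not tested. From ENB to LNB, 8 rose (Gria1, Gria2, Gabra2, Gabra4, Gabra5, Gabrb1, Gabrg3 and Glrb) and 0 fell. A further 7 rose from LNB to Neuron (Gria4, Grin1, Grik2, Gabra2, Gabra4, Gabra5 and Glrb) and 0 fell. Between the ends, Neuron against NSC, 16 rose and 0 fell. These are calls of edgeR's quasi-likelihood test at an adjusted p of 0.05 (Benjamini-Hochberg over all genes tested), and 28 of the 30 members passed the filter on low counts; Glra1 and Glra3 did not. A member that passed through 1 stage alone, such as Grin2a, had to differ between stages, so the counts describe the members and are not evidence of their own.

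Over all genes tested, the share called was 10.1% from NSC to ENB (4.95% higher and 5.12% lower), 3.77% from ENB to LNB (2.8% higher and 0.966% lower), 14.7% from LNB to Neuron (5.33% higher and 9.33% lower) and 23.7% between Neuron and NSC (11.0% higher and 12.8% lower). The median log2 difference of the 28 members was -0.39, 1.36, 1.34 and 2.34 in the same order, beside -0.01, 0.05, -0.18 and -0.06 for all genes tested. These medians were the same with Gabrd, which had 0 counts in every ENB library, set at the bound that 3 counts over the group allow. With scale factors by relative log expression in place of TMM, the median of all genes moved by 0.16 from LNB to Neuron and by 0.12 between Neuron and NSC. The calls from LNB to Neuron over all genes were then 1193 higher and 1272 lower in place of 937 and 1642, and those between Neuron and NSC 2196 and 1960 in place of 1930 and 2245. All members called here kept their call and direction under that scaling. The comparisons share libraries (ENB enters 2 of them, LNB 2, NSC 2 and Neuron 2), so they are not independent of each other.

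The counts depended on single libraries. For NSC to ENB, leaving out NSC replicate 1, 2 or 3 left 7, 8 or 6 members called, and leaving out ENB replicate 1, 2 or 3 left 3, 6 or 4. Grik3, Gabra4 and Gabrg3 passed in all 6 of these fits. From ENB to LNB, leaving out ENB replicate 1, 2 or 3 left 2, 2 or 1, and leaving out LNB replicate 1, 2 or 3 left 3, 9 or 2, with no member passing in all 6. With LNB replicate 2 as the only LNB library, 0 of 28 members and 8 of all genes were called in that comparison, and the log2 differences of the 8 members were still positive, from 0.92 for Gria2 to 7.62 for Gabra5. For LNB to Neuron, leaving out LNB replicate 1, 2 or 3 left 4, 7 or 5, leaving out Neuron replicate 1, 2 or 3 left 9, 6 or 4, and LNB replicate 2 alone left 3 (Grik2, Gabra2 and Gabra5). Grin1, Grik2, Gabra2 and Gabra5 passed in all 6 single omissions. Between Neuron and NSC, the 6 omissions left 11 to 15, and 10 of the 16 passed in every one.

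Libraries of NSC, ENB and LNB carried either of 2 sequences as their second index, and the 3 Neuron libraries carried 1 of them. Within each index taken alone, the 10 members called from NSC to ENB and the 8 called from ENB to LNB had the same sign as in the full fit. With the index as a term, 9 and 3 members were called in these comparisons. For the 2 comparisons with Neuron, only 1 index had libraries of both stages, and there all 7 and all 16 signs were the same.

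**Figure D1:**
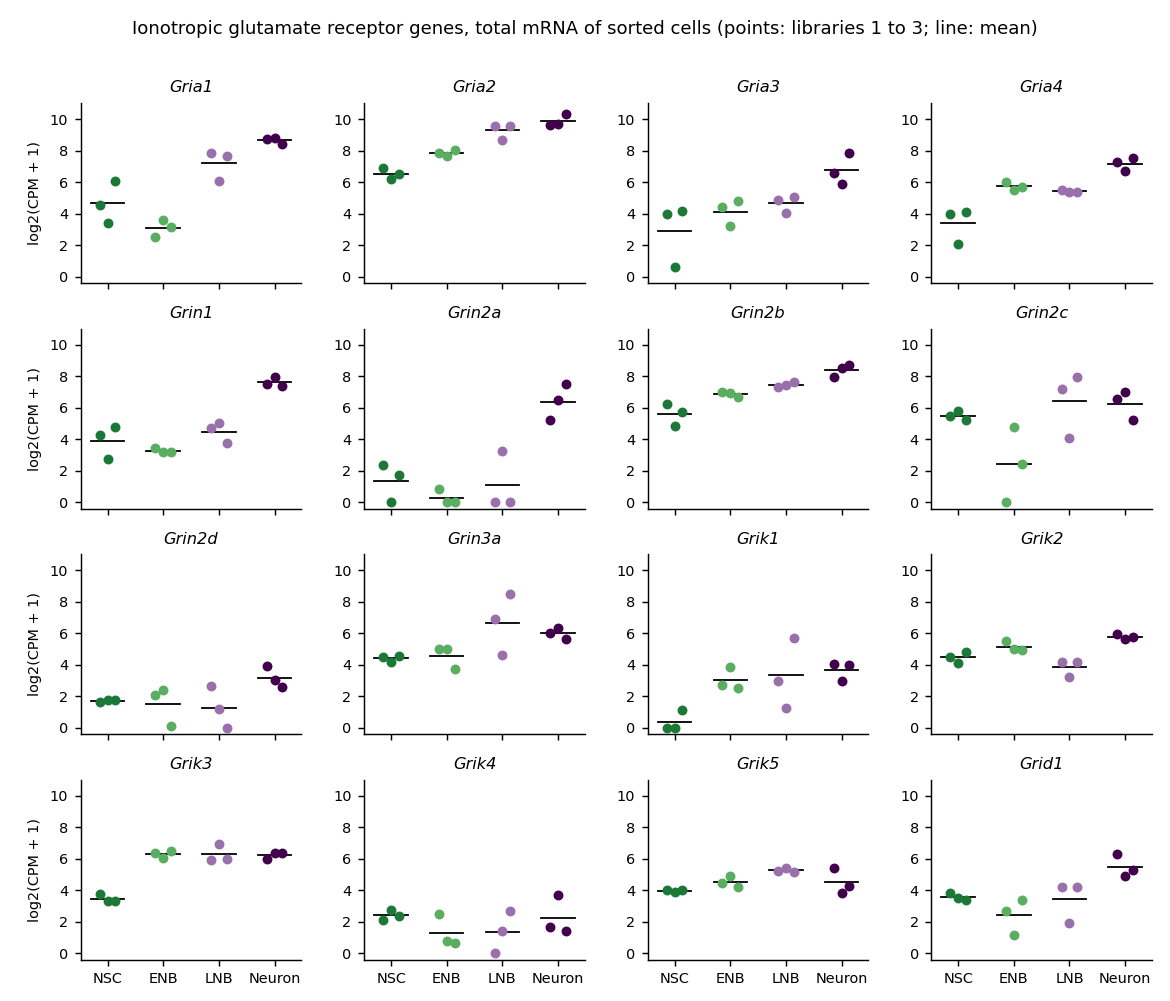
Level of the 16 ionotropic glutamate receptor genes in total mRNA, as log2(CPM + 1) on the vertical axis against stage, with 1 point per library (3 per stage) and a line at the mean. Gria2 and Grin2b libraries do not overlap between adjacent stages on this scale, although Grin2b passed the test between adjacent stages only from NSC to ENB and Gria2 did not pass from LNB to Neuron, Gria1 and Grin1 step up late, Grik3 steps up from NSC to ENB and then stays level, and Grin2a is near 0 before the Neuron stage except at 8.46 CPM in LNB replicate 2 and up to 4.23 CPM in NSC.

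Gria2 encodes the AMPA subunit whose edited form keeps calcium out of the channel. It stood at 121, 71.3 and 90.9 CPM in NSC, 225, 201 and 258 in ENB, 745, 413 and 768 in LNB, and 776, 813 and 1254 in Neuron. No library of 1 stage overlapped with the stage before it in CPM. The log2 difference was 1.28 ± 0.29 (SE, adjusted p = 0.0196) from NSC to ENB and 1.49 ± 0.30 (adjusted p = 0.0251) from ENB to LNB, and it was 0.56 ± 0.29 (adjusted p = 0.217) from LNB to Neuron. The first call was lost in 4 of 6 omissions (adjusted p up to 0.0769, when NSC replicate 2 was left out) and the second in 5 of 6 (up to 0.0877, when ENB replicate 1 was). Per length, in the deposited TPM, Gria2 was the highest member at the ENB, LNB and Neuron stages, at 67.5 ± 10.4, 190 ± 53.7 and 305 ± 103 TPM (SD, n = 3). In TPM its LNB and Neuron libraries overlapped, with 235.9 in LNB replicate 1 and 234.1 in Neuron replicate 1.

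Gria1, the AMPA subunit that is inserted into synapses during potentiation, took a different course. It measured 22.5, 9.81 and 66.7 CPM in NSC, 4.65, 11.2 and 7.81 in ENB, 233, 66.9 and 204 in LNB, and 429, 454 and 339 in Neuron. Every LNB library was above every ENB library, while the NSC and ENB libraries overlapped. The rise from ENB to LNB was 4.41 ± 0.70 on the log2 scale (adjusted p = 0.00963), and it missed the threshold only without ENB replicate 3 (adjusted p = 0.0566) among the 6 omissions. With LNB replicate 2 alone it was 3.17 (adjusted p = 0.19). Gria4, a subunit of fast AMPA receptors, was at 3.19 to 15.9 CPM in NSC, 44.2 to 63.7 in ENB, 40.3 to 43.4 in LNB and 106 to 181 in Neuron, which gives 2 steps with a plateau between them. Its steps were 2.22 ± 0.47 from NSC to ENB (adjusted p = 0.0135, and 0.0508 without ENB replicate 1) and 1.81 ± 0.46 from LNB to Neuron (adjusted p = 0.0217, and up to 0.0693 without LNB replicate 1, LNB replicate 3 or Neuron replicate 3). Gria3 passed in no single step by edgeR. Its Neuron libraries (94.1, 58.5 and 231 CPM) still lay above its LNB libraries (28.8, 15.5 and 32.2 CPM), and DESeq2 called that step. Between NSC and Neuron Gria3 rose by 3.58 ± 0.93 (adjusted p = 0.0162, and 0.0574 without Neuron replicate 3).

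Grin1 encodes the obligatory glycine-binding subunit of every NMDA receptor (ENSMUSG00000026959, chr2:25291177-25319187). Its level was 18.0, 5.63 and 26.0 CPM in NSC, 9.73, 8.25 and 8.33 in ENB, 24.9, 31.4 and 12.4 in LNB, and 182, 246 and 163 in Neuron. The Neuron libraries were above all 9 others. Every LNB library was above every ENB library, and NSC overlapped with both. The step from LNB to Neuron was 3.10 ± 0.50 (adjusted p = 0.00203) and passed in all 6 single omissions. With LNB replicate 2 alone it was 2.63 (adjusted p = 0.0598). Grin1 overlaps the antisense gene Grin1os over 7403 bases, whose reads cannot be separated here without strand.

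Among the glutamate-binding NMDA subunits, only Grin2b, the slow subunit typical of young neurons, was called from NSC to ENB. Grin2c was present in NSC too, at 44.3, 53.8 and 35.5 CPM. Grin2b was at 74.0, 28.1 and 52.1 CPM in NSC, 125, 120 and 102 in ENB, 157, 172 and 193 in LNB, and 249.5, 358 and 424 in Neuron. No 2 adjacent stages overlapped in CPM. In the deposited TPM, NSC overlapped with ENB and LNB with Neuron, but ENB did not overlap with LNB. The TPM ranges were 10.6 to 40.8 in NSC, 28.9 to 46.8 in ENB, 62.7 to 74.8 in LNB and 66.0 to 75.1 in Neuron. The difference from NSC to ENB was 1.17 ± 0.31 (adjusted p = 0.0361), which exceeded the threshold in 5 of 6 omissions, up to 0.112 without ENB replicate 1. The later steps, 0.59 ± 0.31 and 0.98 ± 0.31, did not pass (adjusted p = 0.345 and 0.0533). Between NSC and Neuron it was 2.74 ± 0.33 (adjusted p = 0.000184). Grin2a, the faster subunit of mature synapses, was at 0 in 5 of the 9 libraries before the Neuron stage and at most at 8.46 CPM in the other 4, then at 35.5, 88.0 and 181 CPM in the Neuron libraries. The rise between NSC and Neuron was 5.51 ± 1.75 (adjusted p = 0.0397), and it exceeded the threshold in 5 of 6 omissions, up to 0.12 without Neuron replicate 3. Grin2d was at most at 14.1 CPM and passed in no comparison of total mRNA.

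Kainate receptors contain the principal subunits Grik1 to Grik3, which form channels alone, and Grik4 and Grik5, which need a partner. Grik3 (ENSMUSG00000001985, chr4:125490259-125714173) was at 12.7, 9.12 and 8.84 CPM in NSC and at 81.3, 65.0 and 90.0 in ENB. It then stayed between 59.1 and 119 CPM in the 6 LNB and Neuron libraries. The step of 2.94 ± 0.32 (adjusted p = 0.000681) was the member call with the smallest adjusted p from NSC to ENB and passed in all 6 omissions, and later steps were 0.03 ± 0.30 and -0.08 ± 0.30. Grik2 moved at other times. It was at 21.6, 16.7 and 27.1 CPM in NSC, 44.2, 30.5 and 30.3 in ENB, 17.0, 8.25 and 17.2 in LNB, and 62.3, 48.0 and 53.5 in Neuron. The LNB libraries were below all ENB and Neuron libraries, and the rise from LNB to Neuron was 1.95 ± 0.36 (adjusted p = 0.00431). The preceding difference of -1.31 ± 0.35 missed the threshold (adjusted p = 0.064). Grik1 was at 0, 0 and 1.23 CPM in NSC and between 6.84 and 15.7 in Neuron, a rise of 5.03 ± 1.62 (adjusted p = 0.0413) that exceeded the threshold in 4 omissions, up to 0.112 without NSC replicate 2. Grik4, Grik5 and the delta-type subunit Grid1 passed in no comparison of total mRNA by edgeR. Grid1 read 13.5, 10.3 and 9.40 CPM in NSC and 78.4, 29.0 and 38.5 in Neuron, with no overlap. DESeq2 called Grid1 higher in Neuron than in NSC and than in LNB.

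**Figure D2:**
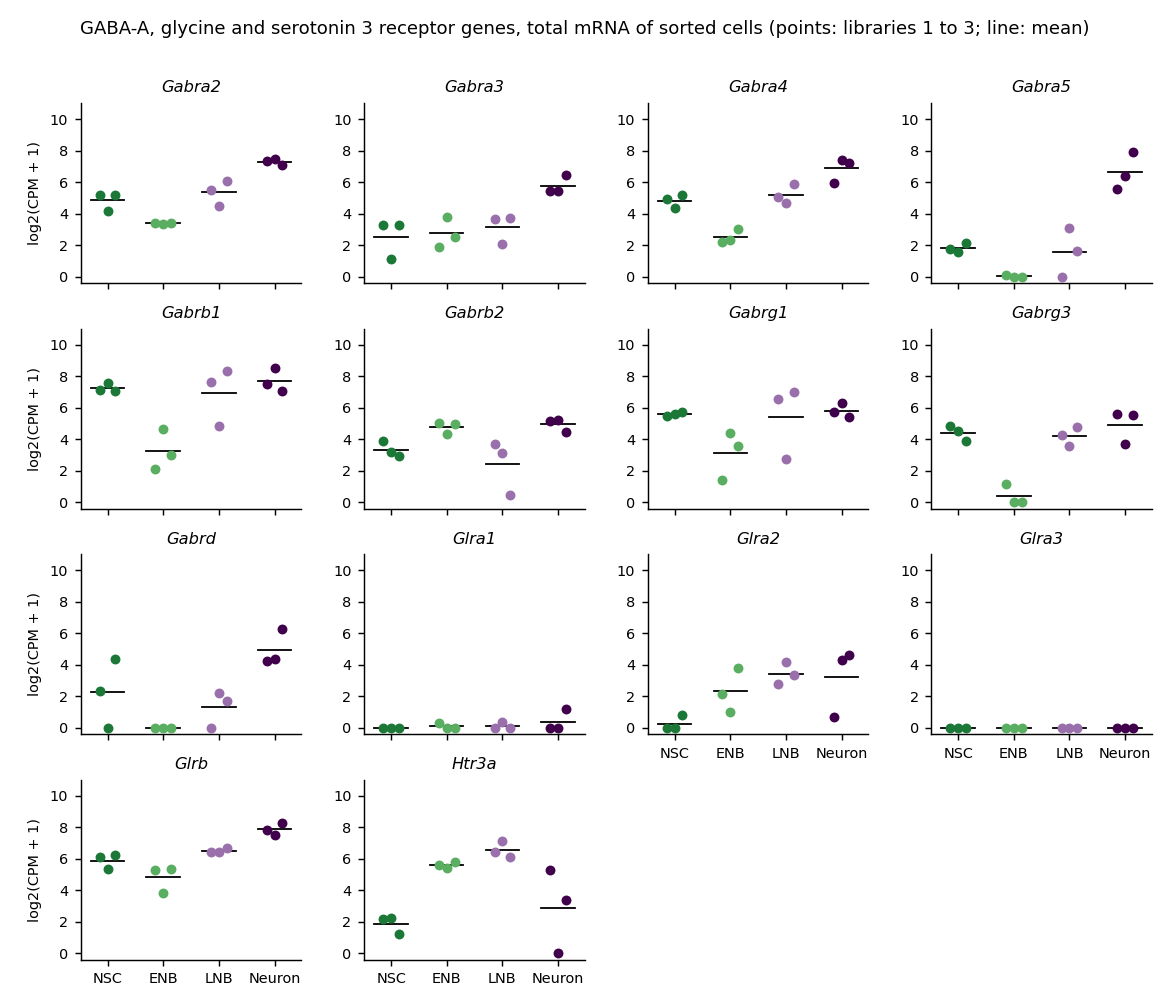
Level of the 9 GABA-A, 4 glycine and 1 serotonin 3 receptor genes in total mRNA, as log2(CPM + 1) on the vertical axis against stage, with 1 point per library (3 per stage) and a line at the mean. Gabra2, Gabra4, Gabrb1 and Gabrg3 dip at the ENB stage, Gabra5 is low before the Neuron stage, Htr3a is high in ENB and LNB, and Glra3 is at 0 in all 12 libraries.

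The alpha subunits of GABA-A receptors set GABA affinity and location, and 3 of the 4 measured fell from NSC to ENB. Gabra2 was at 35.9, 16.8 and 34.7 CPM in NSC, 9.47, 9.00 and 9.76 in ENB, 44.0, 21.8 and 67.3 in LNB, and 160, 174 and 134 in Neuron. The ENB libraries were below every other library, and the Neuron libraries were above every other library. The differences were -1.63 ± 0.39 from NSC to ENB (adjusted p = 0.0241), 2.23 ± 0.40 from ENB to LNB (adjusted p = 0.0169) and 1.82 ± 0.39 from LNB to Neuron (adjusted p = 0.00978). The first call was lost in 5 of 6 omissions, with the highest adjusted p, 0.0824, when NSC replicate 3 was left out. The second was lost in 5 of 6, with the highest, 0.0819, when ENB replicate 3 was left out, and the last was kept in all 6.

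Gabra4, a partner of the delta subunit in extrasynaptic receptors, followed the same course. Its level was 28.9, 19.3 and 35.9 CPM in NSC, 3.70, 4.12 and 7.29 in ENB, 31.7, 25.0 and 59.0 in LNB, and 62.0, 171 and 147 in Neuron. ENB again lay below all other libraries. The fall was -2.46 ± 0.48 (adjusted p = 0.0093, kept in all 6 omissions), the rise to LNB 2.92 ± 0.48 (adjusted p = 0.0118, and 0.0594 or 0.0541 without ENB replicate 1 or 2), and the rise to Neuron 1.72 ± 0.46 (adjusted p = 0.0265). That last call was lost in 4 of 6 omissions (LNB replicates 1 and 2 and Neuron replicates 2 and 3, up to 0.1 without LNB replicate 1) and with LNB replicate 2 alone (adjusted p = 0.0739).

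Gabra5, an alpha subunit of tonic GABA currents, had 1 count over the 3 ENB libraries and 96 over the NSC libraries. The ratio of summed rates was 95.5 (95% exact interval 16.7 to 3812, counting error only), and the adjusted p of 0.0362 exceeded the threshold in each of the 6 omissions, up to 0.134 without ENB replicate 3. LNB libraries read 0, 7.57 and 2.13 CPM and overlapped with ENB, although the fit called the rise (adjusted p = 0.0476), a call lost in 5 of 6 omissions, up to 0.186 without ENB replicate 3, and with the animals that ENB and LNB libraries share as a term (adjusted p = 0.0727). The Neuron libraries stood at 46.2, 84.4 and 235 CPM, above all others. The step from LNB was 5.17 ± 1.09 (adjusted p = 0.0089) and passed in all 6 omissions and with LNB replicate 2 alone (3.99, adjusted p = 0.0408). Gabra3 rose by 3.20 ± 0.84 between NSC and Neuron (adjusted p = 0.017, and 0.0532 without Neuron replicate 3), from 1.14 to 8.76 CPM up to 42.3 to 85.5 CPM.

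Beta subunits complete the GABA binding site, and gamma subunits anchor the receptor at synapses. Gabrb1 was at 137, 189 and 134 CPM in NSC and at 3.27, 24.1 and 7.09 in ENB. It was at 197, 27.7 and 314 CPM in LNB and at 178, 359 and 132 in Neuron. ENB lay below all other libraries, with LNB replicate 2 closest to it. The fall was -3.76 ± 0.86 (adjusted p = 0.019, and 0.066 or 0.0836 without ENB replicate 1 or 3) and the rise to LNB 3.98 ± 0.87 (adjusted p = 0.0314). That rise exceeded the threshold in 4 omissions, up to 0.132 without ENB replicate 3, and was 1.38 (adjusted p = 1) with LNB replicate 2 alone. Gabrg3 was at 27.9, 21.6 and 13.7 CPM in NSC, at 1.21, 0 and 0 in ENB and at 18.0, 10.7 and 26.3 in LNB, with no overlap between ENB and either neighbour. The fall was -5.65 ± 1.16 (adjusted p = 0.0123, kept in all 6 omissions), and the rise to LNB, 5.44 ± 1.15 (adjusted p = 0.0291), exceeded the threshold in 4, up to 0.0889 without ENB replicate 3. Gabrb2 and Gabrg1 passed in no comparison of total mRNA. Gabrd, the extrasynaptic delta subunit, was at 0 in all ENB libraries, 0 to 20.03 CPM in NSC, 0 to 3.71 in LNB and 17.9 to 76.7 in Neuron. None of its comparisons passed.

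Glrb, the beta subunit that tethers glycine receptors to gephyrin, was at 39.4 to 74.3 CPM in NSC, 13.1 to 40.3 in ENB, 84.3 to 101 in LNB and 178 to 311 in Neuron. It rose by 1.56 ± 0.39 from ENB to LNB (adjusted p = 0.0483) and by 1.40 ± 0.39 from LNB to Neuron (adjusted p = 0.0312), and these calls were lost in 6 and 5 of 6 omissions, up to 0.15 without LNB replicate 3 and 0.105 without LNB replicate 1. The first was also lost with shared animals as a term (adjusted p = 0.0634). The alpha subunits that bind glycine were scarce. Glra2, the fetal form, reached at most 24.2 CPM and rose by 5.91 ± 1.74 between NSC and Neuron (adjusted p = 0.0289), a call lost in 4 omissions, up to 0.0921 without NSC replicate 2. Glra1, the adult form, was at most at 1.30 CPM.

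Htr3a encodes a serotonin-gated cation channel subunit known from interneurons of the caudal ganglionic eminence lineage. It was at 3.56, 3.80 and 1.34 CPM in NSC, 48.7, 42.4 and 55.8 in ENB, 84.6, 140 and 67.3 in LNB, and 38.8, 0 and 9.66 in Neuron. The ENB and LNB libraries were above all NSC and all Neuron libraries. The rise from NSC to ENB was 4.05 ± 1.15 (adjusted p = 0.0446), a call that exceeded the threshold in each of the 6 omissions, up to 0.147 without NSC replicate 3. The difference from LNB to Neuron was -2.58 ± 1.07 and missed the threshold (adjusted p = 0.126).

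Some subunits moved with the astrocyte markers from library to library. Grin2c, the NMDA subunit known from astrocytes and cerebellar granule cells, was at 144, 16.1 and 246 CPM in LNB replicates 1 to 3, where the astrocyte markers stood at 4294, 681 and 5784 CPM. Grin3a was at 117, 23.1 and 358 CPM, Gabrg1 at 93.9, 5.71 and 124 CPM, and Gabrb1 as given above, each lowest in LNB replicate 2. In ENB, with 123, 668 and 253 CPM of the markers, Grin2c was at 0, 26.4 and 4.43 CPM, Gabrg1 at 1.72, 19.6 and 11.1 and Gabrb1 at 3.27, 24.1 and 7.09, each highest in ENB replicate 2 as the markers were. In Neuron, with 1534, 3367 and 711 CPM of the markers, Grin2c, Gabrg1 and Gabrb1 were again highest in replicate 2 and lowest in replicate 3. Grin3a had the same order in Neuron (65.1, 81.2 and 48.9 CPM) but not in ENB (31.1, 31.1 and 12.2 CPM). In NSC, with 3589 to 3795 CPM of the markers, Grin3a was at 16.7 to 22.5 CPM. Between NSC and ENB 3 of the 6 markers fell, and from ENB to LNB 4 rose. The part of astrocyte RNA in the differences of these genes was not tested. Of the 8 members that rose from ENB to LNB, 6 (Gria1, Gria2, Gabra2, Gabra4, Gabrb1 and Gabrg3) were lowest in LNB replicate 2.

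**Figure D3:**
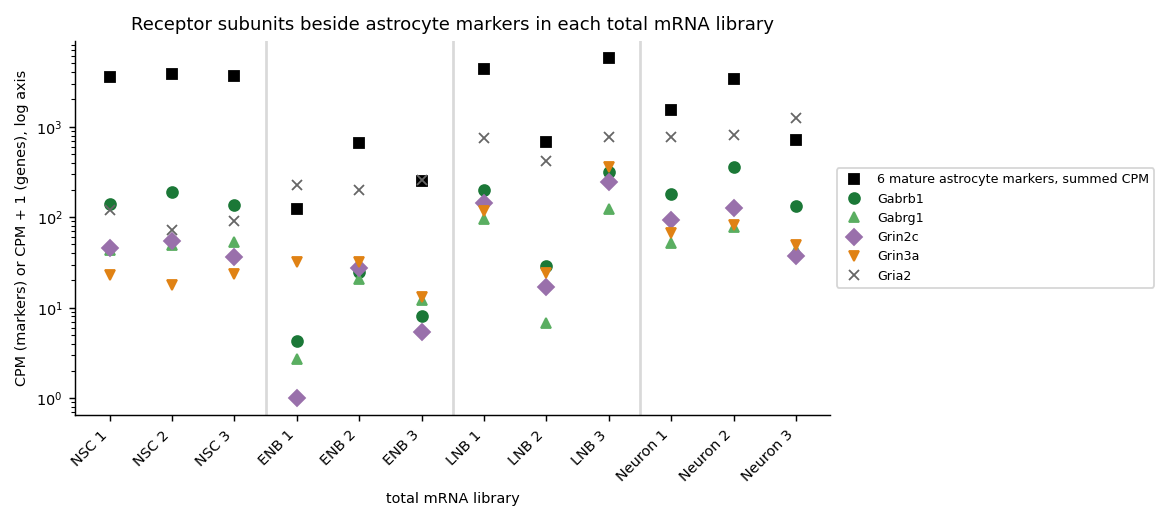
Level of 5 receptor genes (CPM + 1) and summed level of 6 mature astrocyte markers (CPM, black squares) in each of the 12 total mRNA libraries, on a log axis. Gabrb1, Gabrg1 and Grin2c drop where the markers drop, in ENB and in LNB replicate 2, while Gria2 (grey crosses) rises from NSC to ENB and is lower in LNB replicate 2 than in replicates 1 and 3.

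Neuron libraries held other cells' markers as well. The summed level of 7 markers of mitral, tufted and other glutamatergic neurons was 823 to 1034 CPM in Neuron against 0 to 259 CPM at the other stages, and 2 of the 7 rose from LNB to Neuron. Oligodendrocyte markers reached 1730 to 7657 CPM in Neuron. Their part in the 7 rises from LNB to Neuron was not tested.

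Exchange of subunits within a class was read as each subunit's share of the summed TPM of its class, which is a level per length. Over 6 such shares in total mRNA and the same 6 in ribosome-bound mRNA, 2 differed between the 4 stages by an exact permutation test over libraries with adjustment over the 12. The share of Grik2 in the principal kainate subunits Grik1 to Grik3 fell from 81.7%, 79.8% and 81.0% in NSC to between 38.3% and 50.2% in ENB and between 12.7% and 34.2% in LNB. It stood at 47.7% to 51.9% in Neuron. The 4 groups overlapped only between ENB and Neuron. The means were 80.8 ± 0.92, 43.5 ± 6.09, 19.9 ± 12.4 and 49.9 ± 2.11% (SD, n = 3; exact permutation p = 0.000195, adjusted p = 0.00234), and the call was kept in all 12 single omissions. Grik3 took most of the remainder in every total library except LNB replicate 3, where Grik1 was at 21.4 TPM and Grik3 at 8.23 TPM. The mean level of Grik3 was 1.56 TPM in NSC and 10.6, 11.4 and 12.7 TPM at the later stages. Grik2 was at 7.81, 10.8, 4.10 and 17.6 TPM.

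The share of Gabrb1 in the summed level of Gabrb1 and Gabrb2 was 93.0 ± 0.41% in NSC, 16.8 ± 10.6% in ENB, 86.7 ± 12.0% in LNB and 83.6 ± 4.89% in Neuron (SD, n = 3; exact permutation p = 0.00584, adjusted p = 0.0351). ENB libraries, at 9.60% to 28.9%, were below every other library. The call was lost without NSC replicate 1, 2 or 3 or Neuron replicate 1, with adjusted p from 0.0526 to 0.0686, and with shares from raw counts that are not per length (adjusted p = 0.0557). Gabrb1 is among the genes that moved with the astrocyte markers.

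The NMDA and AMPA shares did not pass. Grin2b made up 58.7 ± 15.4% of Grin2a to Grin2d in NSC, 91.6 ± 6.32% in ENB, 66.4 ± 19.8% in LNB and 58.2 ± 6.84% in Neuron (exact permutation p = 0.0668, adjusted p = 0.2). Gria2 made up 70.2 ± 15.7, 74.7 ± 2.88, 76.3 ± 3.89 and 59.9 ± 4.72% of Gria1 to Gria4 in the same order (exact permutation p = 0.154, adjusted p = 0.287). The remaining shares, of Gabra2 among the alpha subunits and of Glra2 among the glycine-binding subunits, had adjusted exact permutation p of 0.438 and 1 in total mRNA. The Glra2 share was between 92.8% and 100% in every total library that had one, and 2 NSC libraries had none. With Glra1 and Glra3 at or near 0 throughout, that test cannot decide on an exchange.

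**Figure D4:**
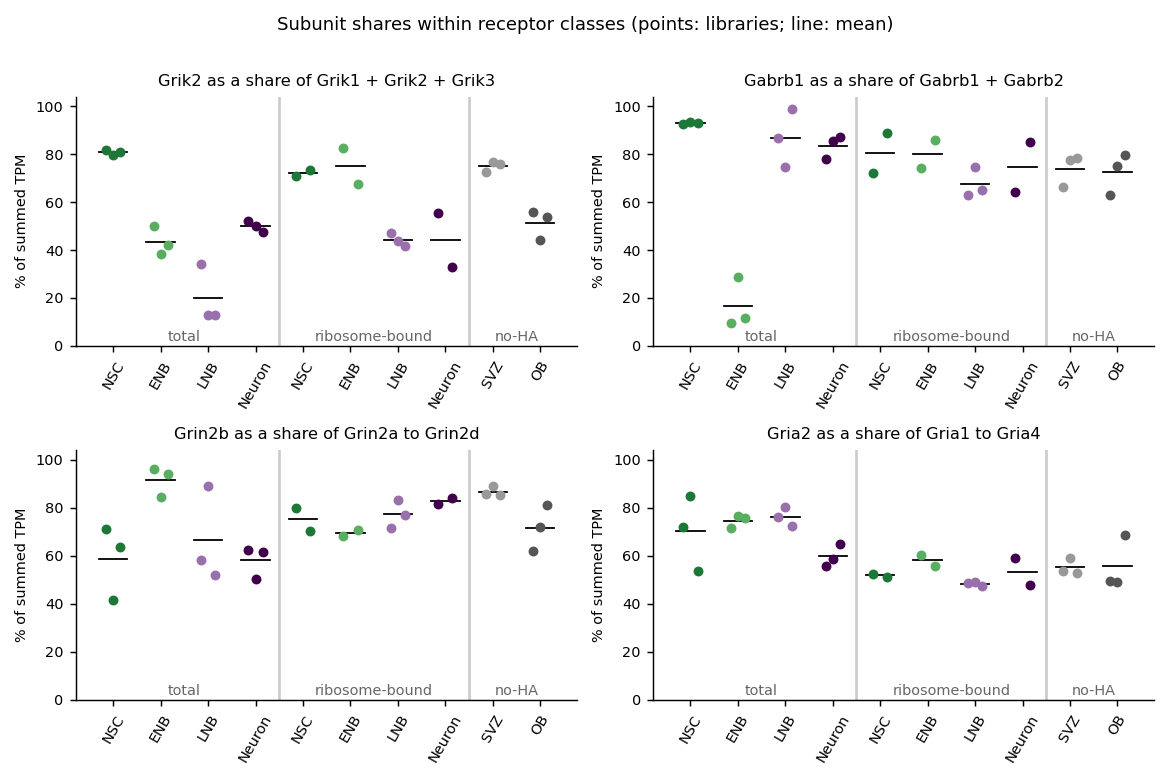
Share of a subunit in the summed TPM of its class, in percent, for 4 classes and all 10 groups of libraries, with 1 point per library and a line at the mean. In total mRNA the Grik2 share falls from NSC to LNB and the Gabrb1 share is low at the ENB stage alone, while the Gabrb1 share of ENB immunoprecipitates is 85.8% and 74.3%.

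In ribosome-bound mRNA the Grik2 and Gabrb1 shares were read beside those of the no-HA controls. Grik2 was at 72.3 ± 1.80% (SD, n = 2) in NSC, 75.1 ± 10.8% in ENB (n = 2), 44.2 ± 2.68% in LNB (n = 3) and 44.2 ± 16.0% in Neuron (n = 2), against 75.1 ± 2.16% in the SVZ control and 51.4 ± 6.22% in the OB control (n = 3 each). The 4 stages did not differ past the threshold (exact permutation p = 0.0365, adjusted p = 0.146). Leaving out Neuron replicate 1 or 2 leaves 1 Neuron library. Neuron minus NSC was then -39.4 or -16.8 percentage points for Grik2. For Gria2 in Gria1 to Gria4 it was -4.08 or 7.29, so the sign depended on the library left out. The low Gabrb1 share of sorted ENB was not seen in the ENB immunoprecipitates, which read 85.8% and 74.3%, beside 66.1% to 78.3% in the SVZ controls. None of the 6 ribosome-bound shares passed.

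The immunoprecipitates were next set against the control of their tissue, since tissue RNA that binds without the tag limits what can be read from them. Most members passed in neither direction at each stage. In NSC, 9 of 29 members tested were below the SVZ control (Gria1 to Gria4, Grin2a, Grin2b, Grik2, Gabra3 and Gabrd) and 1, Htr3a, was above it, where 15.3% of all genes passed (8.75% higher and 6.59% lower). The median member difference was -0.66 beside -0.14 for all genes. In ENB, 0 of 29 passed by edgeR, where 1.52% of genes did (0.708% higher and 0.813% lower), with 4 members at an unadjusted p under 0.05 and 2 (Grin2b and Htr3a) called by DESeq2. The ENB libraries disagreed on Htr3a, at 1.25 and 34.0 CPM, below and above all SVZ controls (3.11, 3.36 and 1.58 CPM). In LNB, 1 of 29 passed (Grik3, higher), where 10.1% of genes did (7.0% higher and 3.05% lower). In Neuron, 3 were above the OB control (Gabra5, Gabrd and Glrb) and 5 below it (Gria4, Grin2c, Grin3a, Grik1 and Gabrb1), where 27.4% of genes passed (11.6% higher and 15.7% lower). The member medians were 0.07, 0.00 and -0.03 in ENB, LNB and Neuron, beside -0.04, -0.08 and -0.21.

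**Figure D5:**
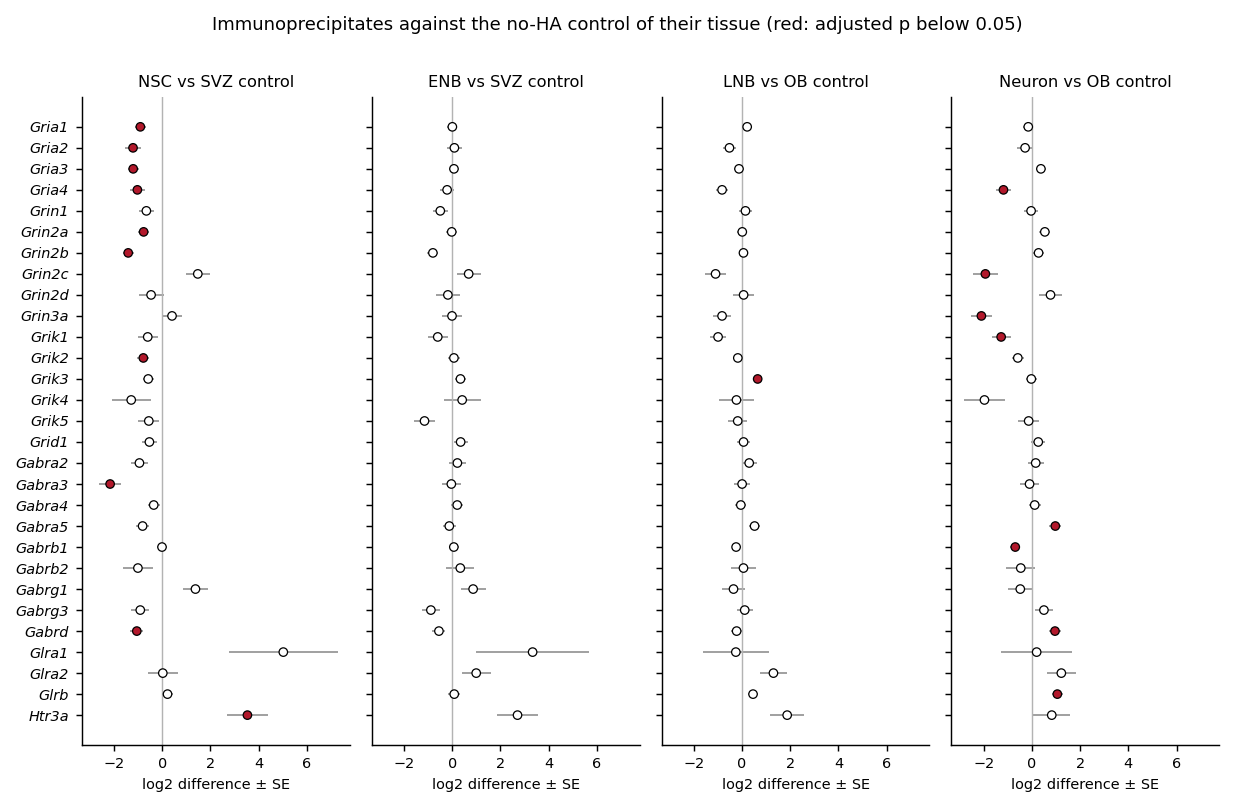
Log2 difference ± SE between the immunoprecipitates of each stage and the no-HA control of their tissue for the 29 members tested, with red points for an adjusted p below 0.05. Red points lie mostly left of 0 in NSC, none is red in ENB, Grik3 alone is red in LNB, and Gabra5, Gabrd and Glrb lie right of 0 in Neuron.

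The members above their control were few and are given in full. Htr3a read 45.2 and 17.1 CPM in the NSC immunoprecipitates against 3.11, 3.36 and 1.58 in the SVZ controls, a difference of 3.53 ± 0.84 (adjusted p = 0.0112, and 0.0834 or 0.0563 without NSC replicate 1 or SVZ control replicate 3). Both libraries were above all controls. In the sorted NSC its level was at most 3.80 CPM. Glrb read 228 and 260 CPM in Neuron against 115, 149 and 89.4 in the OB controls, with no overlap (1.05 ± 0.24, adjusted p = 0.00493, kept in all 5 omissions). Gabra5 read 331 and 269 CPM against 154, 164 and 141, also with no overlap (0.97 ± 0.25, adjusted p = 0.0103, and 0.0723 without Neuron replicate 1). Gabrd read 112 and 91.5 CPM against 42.8, 43.8 and 70.7 (0.96 ± 0.26, adjusted p = 0.0153, and 0.0899 without Neuron replicate 1). For each of these genes the third OB control value is from the library whose name contains 4wpi, as the Neuron names do. The other OB controls are named 3dp or 3dpi, so time differed within these comparisons.

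Grik3 read 103, 99.1 and 84.1 CPM in the LNB immunoprecipitates against 62.6, 65.9 and 53.7 in the OB controls, with no overlap. The difference of 0.65 ± 0.20 (adjusted p = 0.0469) exceeded the threshold in each of the 6 omissions, up to 0.158 without LNB replicate 2. With scale factors by relative log expression the call went from Grik3 to Gria4, and the calls over all genes were 663 higher and 762 lower in place of 1335 and 582, with a shift of the median of all genes of -0.16. In NSC the count of 10 was 4 or 2 when the NSC library 1 or 2 was left out, 11, 6 or 6 when SVZ control 1, 2 or 3 was, and 6 with the second index as a term. With estimated counts in place of raw counts, the all-gene calls in NSC were 1348 higher and 1427 lower in place of 1669 and 1256, with a shift of -0.13. In NSC the call kept in all 5 omissions was Grin2b, at 310 and 219 CPM against 585, 798 and 730 in the SVZ controls (-1.41 ± 0.23, adjusted p = 0.00131). In Neuron the count of 8 was 5 without either Neuron library, and the calls kept in all 5 omissions were Grin3a (-2.10 ± 0.44, adjusted p = 0.00356) and Glrb. Grin3a read 16.3 and 8.52 CPM against 55.3, 67.5 and 36.9 in the OB controls. All 6 mature astrocyte markers were below the control in Neuron, and their part in the 5 lower members was not tested.

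The controls differed by tissue. OB controls were above SVZ controls in 6 of 29 members (Gria4, Grin2c, Grin3a, Grik1, Gabra3 and Gabra5) and below in 4 (Grid1, Gabra4, Gabrg3 and Gabrd), where 11.8% of genes passed (5.65% higher and 6.12% lower), with member and all-gene medians of 0.18 and 0.02. The largest difference of those 10 was Gabra5, at 154, 164 and 141 CPM in OB against 41.2, 31.2 and 19.6 in SVZ (2.32 ± 0.24, adjusted p = 6.6e-06). Gabrd read 42.8, 43.8 and 70.7 CPM in OB against 246, 164 and 174 in SVZ (-1.89 ± 0.25, adjusted p = 6.32e-05). Gria4, Grik1, Grid1, Gabra5, Gabrg3 and Gabrd passed in all 6 omissions.

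Between stages of ribosome-bound mRNA, the step from ENB to LNB is also a step from SVZ to OB. There 6 members rose (Gria4, Grin2b, Grik1, Grik3, Gabra3 and Gabra5) and 5 fell (Grik2, Grid1, Gabra4, Gabrb1 and Gabrd), where 12.9% of genes passed (6.81% higher and 6.05% lower), with medians of 0.13 for members and 0.08 for all genes. Gabra5 read 28.9 and 27.5 CPM in ENB and 224, 224 and 210 in LNB (2.96 ± 0.29, adjusted p = 5.18e-06), and Gabrd 145 and 121 against 45.4, 54.0 and 35.5 (-1.57 ± 0.27, adjusted p = 0.000808). Neither overlapped, both calls were kept in all 5 omissions, and the tissue controls without a tag differed by 2.32 and -1.89 for the same genes. Of 11 calls, leaving out the ENB library 1 or 2 left 4 or 7, and leaving out LNB library 1, 2 or 3 left 5, 4 or 6. ENB and LNB replicates 1 and 2 came from the same animals, and with the replicate block 10 members were called, without Gria4 and Grin2b and with Glrb. With scale factors by relative log expression 9 were called, and the calls over all genes were 953 higher and 1420 lower in place of 1299 and 1154, with a shift of -0.14.

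From NSC to ENB, 5 members rose in ribosome-bound mRNA (Gria1, Gria2, Gria3, Grik3 and Gabra3) and 0 fell, where 8.3% of genes passed (3.44% higher and 4.86% lower), with medians of 0.61 and 0.02. Gria3 read 105 and 77.8 CPM in NSC against 248 and 195 in ENB, with no overlap (1.28 ± 0.24, adjusted p = 0.00615). Leaving out the NSC library 1 or 2 gave 3 or 0 calls, and leaving out either ENB library gave 2, and no call was kept in all 4 omissions. ENB libraries lay at the level of the SVZ control in these genes, at 179, 233 and 218 CPM for Gria3. All-gene calls were 791 higher and 806 lower under relative log expression factors and 777 and 721 with estimated counts, in place of 656 and 926, the latter with a shift of 0.10. Between LNB and Neuron, 1 of 29 members rose (Gabrd) and 0 fell, where 4.13% of genes passed (0.378% higher and 3.75% lower), with medians of -0.10 and -0.15. Gabrd read 45.4, 54.0 and 35.5 CPM in LNB and 112 and 91.5 in Neuron, with no overlap (1.18 ± 0.27, adjusted p = 0.0192). The call was lost without LNB replicate 1 or 3 or Neuron replicate 1, with adjusted p of 0.0723, 0.0828 and 0.081, and with the second index as a term.

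The last question was whether a change between stages differed between ribosome-bound and total mRNA, tested as an interaction. Between NSC and ENB, 7 members differed, 6 with a higher change in ribosome-bound mRNA (Gria1, Gabra2, Gabra4, Gabra5, Gabrb1 and Gabrg3) and 1 with a lower one (Grik3), where 2.81% of genes passed (1.49% higher and 1.32% lower). From ENB to LNB, 6 differed, all lower in ribosome-bound mRNA (Gria1, Gria2, Gabra2, Gabra4, Gabrb1 and Gabrg3), where 6.15% passed (1.89% higher and 4.26% lower). Between LNB and Neuron, 4 differed, all lower (Grin1, Grik2, Gabra2 and Gabra5), where 3.15% passed (1.46% higher and 1.69% lower). The member medians were 1.02, -0.996 and -1.36, beside 0.20, -0.09 and -0.10 for all genes. Successive interactions share the ENB and LNB libraries, so that a low ENB value in total mRNA enters 2 of them with opposite signs.

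Gabra4 shows the pattern. In total mRNA it fell by 2.46 on the log2 scale from NSC to ENB and rose by 2.92 to LNB. In ribosome-bound mRNA it read 197 and 109 CPM in NSC, 214 and 237 in ENB and 102, 105 and 108 in LNB. The immunoprecipitates of ENB were thus at the top of the range where the sorted ENB cells were at the bottom, and the SVZ controls stood at 189, 207 and 189 CPM. The interactions were 3.18 ± 0.62 (adjusted p = 0.0123, and 0.0929 or 0.0554 without the NSC immunoprecipitate 2 or the ENB immunoprecipitate 1) and -4.12 ± 0.59 (adjusted p = 0.00149, kept in all 11 omissions). Grin1, which rose in sorted cells from LNB to Neuron, read 279, 357 and 209 CPM in LNB immunoprecipitates and 264 and 234 in Neuron, with overlap, beside 223, 210 and 334 CPM in the OB controls. Its interaction was -3.27 ± 0.64 (adjusted p = 0.0128, and 0.0627 or 0.108 without the Neuron immunoprecipitate 1 or 2). Since the no-HA controls reached the level of the immunoprecipitates in these genes, the part of untagged tissue RNA in the interactions was not tested.

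The count from NSC to ENB was 0 to 6 over 10 single omissions, lowest without the ENB immunoprecipitate 1 and at 1 and 2 without the NSC immunoprecipitates 2 and 1. It was 4, 5 and 4 without total NSC replicates 1, 2 and 3, 4, 6 and 3 without total ENB replicates 1, 2 and 3, and 3 without the ENB immunoprecipitate 2. From ENB to LNB it was 4 to 11 over 11 omissions, highest without total LNB replicate 2, and 2 (Gabra4 and Gabrg3) with that library as the only LNB total library. For LNB to Neuron it was 0 to 5, lowest without the Neuron immunoprecipitates 2 (0) and 1 (1) and at 2 without the LNB immunoprecipitate 1 or 2. All 6 mature astrocyte markers and all 6 striatal projection neuron markers were lower in the interaction from ENB to LNB, and their part in the member calls was not tested.

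Genes that act with the receptors were read from lists of fixed membership. In total mRNA between NSC and Neuron, 14 of 20 excitatory postsynaptic scaffold genes rose and 1 fell, with a median of 2.14 beside -0.06 for all genes, of which 11.0% were called higher and 12.8% lower. The 3 with the smallest adjusted p were Dlg2 (4.47 ± 0.45), a membrane-associated scaffold, Camk2b (4.13 ± 0.52), a calcium-dependent kinase of the postsynaptic density, and Grip2 (4.25 ± 0.62), which binds AMPA receptors. Of 11 AMPA receptor auxiliary subunits 6 rose and 0 fell (median 2.33), led by Cacng5 (2.90 ± 0.31), Cacng4 (2.33 ± 0.44) and Cacng2 (2.58 ± 0.56), which traffic and tune AMPA receptors. Both kainate receptor auxiliary subunits rose, Neto1 by 4.46 ± 0.73 and Neto2 by 1.33 ± 0.44. Of 10 inhibitory scaffold and trafficking genes 7 rose and 1 fell (median 1.25). Of 9 metabotropic glutamate and GABA-B receptors 6 rose and 0 fell (median 3.43), and of 7 tested genes of GABA and glycine supply, uptake and chloride transport 4 rose and 0 fell (median 1.99).

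The steps differed by gene. From NSC to ENB, Cacng5 (2.41 ± 0.31) and Cacng4 (2.67 ± 0.45) rose and Cnih3, another AMPA auxiliary subunit, fell (-4.87 ± 1.07), with 2 of 11 up and 2 down in that list and a median of 0.66, beside 4.95% up, 5.12% down and a median of -0.01 for all genes. Gad2, which makes GABA, rose by 2.27 ± 0.33 and Slc32a1, which loads it into vesicles, by 2.59 ± 0.67, whereas Slc12a5, the chloride extruder that makes GABA inhibitory, fell by 3.06 on the log2 scale (SE 0.54), with a list median of -0.30. From ENB to LNB Slc12a5 rose by 2.75 ± 0.53, and the glycine transporter Slc6a9, also known from astrocytes, rose by 5.35 ± 0.82 (3 of 7 up, median -0.09, beside 2.8% up and 0.05 for all genes). From LNB to Neuron, Slc12a5 rose again by 3.37 ± 0.52 (1 of 7 up, median 0.08), 5 of 20 excitatory scaffold genes rose and 1 fell (median 0.93), with Dlg2 at 3.49 ± 0.43, and 3 of 9 metabotropic receptors rose (median 1.85). Of all genes in that step 5.33% were called higher and 9.33% lower, with a median of -0.18, and 1 call in a list of 7 is near that background. The adjusted p of each gene named here was below 0.05. Calls of these list genes were not followed through the alternatives, as those of the members were. Over all genes, single omissions gave 96 to 1643 calls from ENB to LNB in place of 663.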

How the data were processed

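Total mRNA of sorted cells, anti-HA immunoprecipitates and no-HA controls were measured in 27 libraries of 10 groups, taken from titles and descriptions. The deposited raw counts are whole reads per Ensembl gene, by a tool not given in the sources used here, and the authors' expected counts (estimated counts, not whole) and TPM values are in separate tables. RSEM 1.2.21, Bowtie2 2.2.6 and GRCm38 are named in the submitters' processing notes, and the labels' protocols name Smart-seq2, with strand not stated.

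Raw counts were tested with edgeR 4.0.16 in R 4.3.3: TMM factors, filterByExpr (minimum count 10, minimum total 15), quasi-likelihood F test, Benjamini-Hochberg over all genes tested, threshold 0.05, SE from the F statistic. The 12 total libraries formed 1 fit, the 9 immunoprecipitates and 6 controls another, and the 12 total and 9 immunoprecipitated libraries the interaction fit. The procedure was tested on simulated data. Class shares used the deposited TPM and exact permutation tests over libraries of the spread between stage means, with no direction, adjusted over the 12 shares. The smallest p possible is 6.49e-05 in total and 0.000794 in ribosome-bound mRNA. Alternatives were DESeq2 1.42.0, relative log expression factors, no filter, expected counts rounded to whole numbers, the second index, shared animals or the replicate block as a term, and single libraries left out. The fit with only LNB replicate 2 was chosen after seeing the data.

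Replicates are separate libraries, and the p-values measure the spread between them. Replicate numbers did not pair total libraries (same-number correlations -0.11 to 0.066 over 18 pairs). ENB and LNB immunoprecipitates 1 and 2 share animals number by number, per the labels, with correlations of -0.013 and 0.091. All 30 members are named by rule, and of each pathway list up to the 3 genes with the smallest adjusted p. Some genes that this rule names are not reported here. Coordinates and promoters are from RefSeq, GRCm38.p6. Members and lists were chosen with earlier results of these data known.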

Additional observations from a re-analysis of the deposited data

Results flagged for a closer look

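The change between adjacent stages differed between ribosome-bound and total mRNA, by an interaction term in edgeR at an adjusted p below 0.05, in 17 results over 10 members. The values are log2 changes in ribosome-bound minus total mRNA. From NSC to ENB they were Gria1 3.15, Grik3 -1.85, Gabra2 2.96, Gabra4 3.18, Gabra5 6.79, Gabrb1 4.01 and Gabrg3 5.84. From ENB to LNB they were Gria1 -4.07, Gria2 -1.69, Gabra2 -2.36, Gabra4 -4.12, Gabrb1 -4.92 and Gabrg3 -6.38. From LNB to Neuron they were Grin1 -3.27, Grik2 -2.37, Gabra2 -1.97 and Gabra5 -4.67. The immunoprecipitates came from whole tissue, with conflicting labels for those of Neuron, and the total libraries from sorted cells. The no-HA controls read 19.6 to 41.2 CPM for Gabra5 and 138 to 177 CPM for Gabrb1 in SVZ. The kind of mRNA and the kind of sample thus cannot be told apart. No group had the 4 libraries that a test for a single distant library needs.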

How the results depend on the processing

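Counts of members called at the adjusted threshold moved by over 1.5 times in these cases, and the cause was not tested. With DESeq2 they were 12 for LNB to Neuron in total mRNA, 10 for NSC to ENB in ribosome-bound mRNA, 2 for the ENB immunoprecipitates and 3 for the LNB immunoprecipitates against control. With no filter on low counts they were 2 for LNB to Neuron in ribosome-bound mRNA, 2 for ENB against control and 3 for LNB against control. With expected counts they were 0 for LNB against control and 4 for the interaction from NSC to ENB. With the second index as a term they were 3 for ENB to LNB in total mRNA, 0 for LNB to Neuron in ribosome-bound mRNA, 6 for NSC against control and 0 for LNB against control; this term could not be estimated in the interaction fit and was not run there. With LNB replicate 2 as the only LNB total library, an alternative chosen after seeing the data in which that library is assumed to vary like the other groups, they were 0 for ENB to LNB, 3 for LNB to Neuron and 2 for the interaction from ENB to LNB.

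Leaving out 1 library at a time gave 3 to 8 members for NSC to ENB, 1 to 9 for ENB to LNB, 4 to 9 for LNB to Neuron and 11 to 15 for NSC to Neuron in total mRNA. In ribosome-bound mRNA it gave 0 to 3, 4 to 7 and 0 to 2 for the 3 adjacent steps. Against control it gave 2 to 11 in NSC, 0 to 1 in ENB, 0 to 1 in LNB and 5 to 8 in Neuron, and between the tissue controls 7 to 10. For the interactions it gave 0 to 6, 4 to 11 and 0 to 5.

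The replicate block gave 8, 6, 7 and 15 members in the 4 comparisons of total mRNA, 5, 10 and 1 in ribosome-bound mRNA, 10, 0, 0 and 8 against control, 10 between controls and 5, 7 and 2 in the interactions. Equal replicate numbers of total libraries do not mark shared animals. Animals are shared by ENB replicate 2 with LNB replicate 3 and by ENB replicate 3 with LNB replicate 2, and with these as a term 7 members were called from ENB to LNB, without Gabra5 and Glrb and with Grin3a.

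Shares are compared as Neuron minus NSC, in percentage points. The Grin2b share in total mRNA was -0.458 and reversed to 14.1 with raw counts, and over single omissions it ran from -9.11 to 5.70. The Gabrb1 share in total mRNA was -7.07 with raw counts and no longer passed, and ran from -11.3 to -6.69 over single omissions. The Gabra2 share in total mRNA ran from -15.9 to 3.03. In ribosome-bound mRNA the Glra2 share reversed to -6.31 with classes of at least 30 counts, and single omissions gave -4.08 to 7.29 for Gria2, -39.4 to -16.8 for Grik2, -16.0 to 4.53 for Gabrb1 and -6.31 to 32.6 for Glra2.

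Groups of 2 or 3 libraries limit all tests, and genes near 0 counts, such as Gabra5, Gabrd, Grin2a and Glra2 before the Neuron stage, rest on few reads.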
